A study of Caenorhabditis elegans with 2 samples.

Results

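The genes described here encode core parts of the spliceosome and the SR proteins of *C. elegans*. They were 36 genes taken by name, and all 36 were found in the WBcel235 annotation among its 19973 protein-coding genes on the nuclear chromosomes. They comprise 8 SR protein genes (rsp-1 to rsp-8), 7 Sm core genes (snr-1 to snr-7), 10 prp genes and 11 other spliceosome genes. The data are peak lists from chromatin immunoprecipitation followed by sequencing (ChIP-seq) of eGFP-tagged LSY-2, a C2H2 zinc finger protein. There was a single group with 2 biological replicates and no second condition. Both replicates were whole L4 larvae of mixed sex from strain OP240, which carries the unc-119(ed3) allele on chromosome III and the insertion wgIs240 for lsy-2, and no age in hours was given. The signal therefore comes from all tissues together, and the cells in which a site was occupied cannot be told from it.

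The spliceosome removes introns from pre-mRNA. It is built from small nuclear RNAs packed with proteins (snRNPs), each RNA of the Sm class being held in a ring of Sm proteins, and from splicing factors that join and leave as the complex is assembled, activated and taken apart. SR proteins carry RNA recognition motifs and a domain rich in arginine and serine, and they help to choose exons and splice sites. In *C. elegans* many pre-mRNAs also receive a spliced leader by trans-splicing, and some genes are transcribed together in operons, so an annotated transcript start can lie downstream of the site where transcription begins.

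A gene is called bound here when the summit of a peak in the optimal list lay within 500 bp of one of its annotated transcript starts. The optimal list holds 1563 peaks, thresholded by the authors on a measure of reproducibility between replicates. It equals the 1563 strongest pooled candidates, so a single peak need not be strong in both replicates. A protein-coding start here is any annotated transcript start of a protein-coding gene. Of the 781 peaks at protein-coding starts, 71.6% overlapped one of the 1563 strongest candidates in each replicate. By this rule 14 of the 36 genes were bound (38.9%), beside 957 of all protein-coding genes (4.79%). Bound genes were 6 of the 7 Sm core genes, 4 of the 8 SR genes, 3 of the 10 prp genes and 1 of the 11 others. The lead of the Sm core genes depended on the window and on shared peaks. With 250 bp in place of 500 bp, 1 Sm core gene and 3 SR genes were bound, and with each summit given to its nearest protein-coding start alone, 2 and 3. No p is given for these counts, since the genes were chosen with earlier results of these data known and neighbouring genes can share a peak.

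The 14 bound genes drew on 13 peaks, because some pairs shared a peak and mog-4 had 2. Signal is the authors' value for each peak, in a unit that the sources used here do not define. The 13 peaks had signals from 73.9 to 602, with a median of 133, beside a median of 95.5 for all 781 peaks at protein-coding starts. Of the 13, 11 (84.6%) were among the first 781 of the optimal list, beside 54.8% of all peaks at starts. Its first 100 peaks held 4 of the 13 (30.8%), beside 10.2% of all peaks at starts. Both mog-4 peaks were among these 4.

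**Figure D1:**
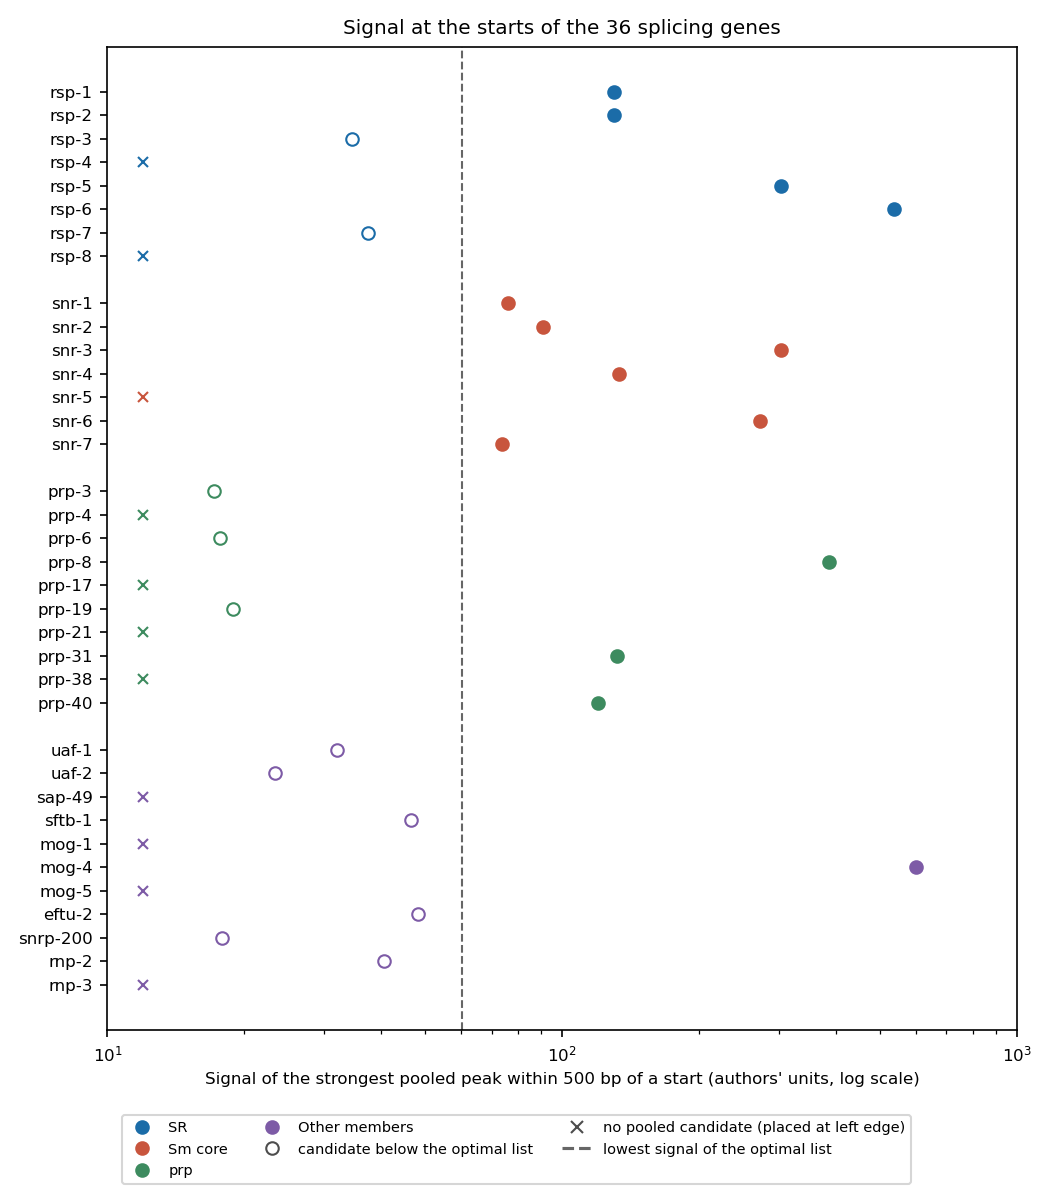
Signal, on a log scale in the authors' units, of the strongest pooled peak or candidate within 500 bp of a start for each of the 36 genes. Filled points are peaks of the optimal list, open points are candidates below it, crosses are genes without a pooled candidate, and the dashed line marks the lowest signal of the optimal list, 60.3; no gene lies between 48.3 and 73.9.

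**Figure D2:**
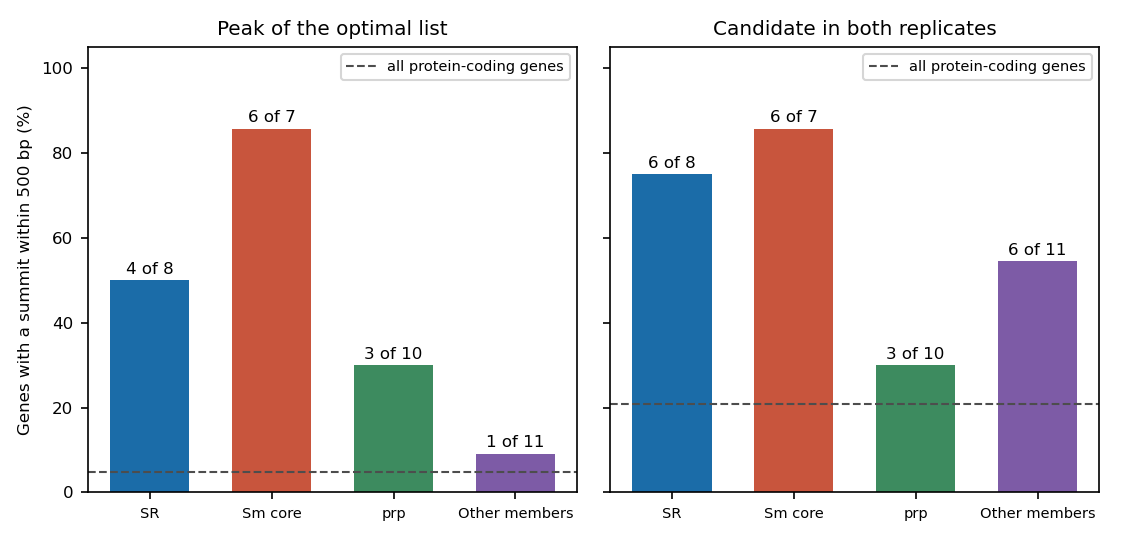
Share of each group of genes, in percent, with a summit within 500 bp of a start. The left panel counts peaks of the optimal list. The right panel counts genes with a candidate of each replicate, and these candidates need not overlap. Dashed lines give the share of all protein-coding genes, 4.79% and 20.9%; the Sm core genes had the highest bar in each panel, which for optimal peaks did not hold with 250 bp or with the nearest gene alone.

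Sequence around 8 of the summits is shown because these peaks hold strong members and the shared upstream regions on which the counts turn. Each run is 101 bases centred on the summit, taken from the RefSeq copy of WBcel235 (ce11), and reads 5′ to 3′ on the strand of the first gene named. Capitals mark matches, on either strand, to any of 5 motifs of 6 letters, which are spelled out with their counts after the sequences. Of these motifs 3 had been found at summits in earlier work on these data, and the other 2 were taken from the windows of these genes themselves.
mog-4 (chrII:14561753-14561853, minus strand): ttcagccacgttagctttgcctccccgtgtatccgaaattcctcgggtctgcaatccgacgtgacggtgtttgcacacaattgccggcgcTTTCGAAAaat
rsp-6 (chrIV:7791344-7791444, minus strand): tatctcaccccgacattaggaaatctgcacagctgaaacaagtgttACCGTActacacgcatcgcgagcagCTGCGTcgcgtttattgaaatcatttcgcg
prp-8 (chrIII:8164013-8164113, plus strand): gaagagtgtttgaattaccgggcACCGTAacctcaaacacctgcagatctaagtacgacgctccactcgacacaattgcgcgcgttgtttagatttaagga
rsp-5 and snr-3 (chrII:6489934-6490034, plus strand): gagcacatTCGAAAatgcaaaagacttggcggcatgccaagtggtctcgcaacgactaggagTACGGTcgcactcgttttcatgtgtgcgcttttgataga
snr-4 (chrV:11980038-11980138, minus strand): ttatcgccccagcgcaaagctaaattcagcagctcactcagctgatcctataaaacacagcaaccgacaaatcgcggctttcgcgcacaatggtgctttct
rsp-1 and rsp-2 (chrII:11453166-11453266, plus strand): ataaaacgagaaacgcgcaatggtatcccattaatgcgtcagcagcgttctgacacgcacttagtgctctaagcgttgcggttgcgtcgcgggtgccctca
prp-40 (chrIII:9521871-9521971, plus strand): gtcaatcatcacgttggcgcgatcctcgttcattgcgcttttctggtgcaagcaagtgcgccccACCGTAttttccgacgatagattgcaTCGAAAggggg
snr-1 (chrIV:17087584-17087684, plus strand): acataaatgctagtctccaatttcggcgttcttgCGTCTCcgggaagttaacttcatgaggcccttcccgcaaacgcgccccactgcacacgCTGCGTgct

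Of the motifs found earlier at summits of the whole list, GAGAGA was in 0 of the 13 windows of these genes, and in 24.2% of the windows at all 781 peaks at protein-coding starts. CTGCGT was in 2 windows, those of rsp-6 and snr-1, beside 20.0% of all such windows. CGTCTC was in 2, those of snr-1 and snr-2, beside 21.1%. Both counts, 15.4% of the 13 windows each, are near the share at all such peaks. A window without a match says only that these letters are not within 50 bases of the summit.

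ACCGTA, which reads TACGGT on the other strand, and TCGAAA were each in 6 of the 13 windows, more than any other of the 2080 possible 6-letter words with their reverse complements. They were picked for this after the windows had been read, so their counts are a description. ACCGTA was in the windows of rsp-6, prp-8, rsp-5 with snr-3, snr-6, prp-40 and snr-7, and in 19.6% of windows at all peaks at starts. TCGAAA was in both windows of mog-4 and in those of rsp-5 with snr-3, prp-40, snr-2 and snr-7, and in 9.09% of all. The end of the first mog-4 window holds 2 overlapping matches to TCGAAA. In promoters of 300 bp, from 250 bp upstream of the first start, ACCGTA was present in 5 of the 14 bound and 1 of the 22 unbound genes, and in 8.11% of all protein-coding genes. TCGAAA was present in 9 and 15 of them, and in 30.8% of all. Promoters of bound genes can hold the same bases as the summit windows from which both words were picked. The counts in bound and unbound genes are therefore not independent of that choice, and they are a description.

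Among the SR genes, rsp-6 had the highest signal. This gene encodes a small SR protein (WBGene00004703, chromosome IV, 7789847 to 7791229, minus strand). Its peak had a signal of 539 in the optimal list, rank 54, and its candidates had signals of 245.8 in replicate 1 and 296.7 in replicate 2. Each replicate has its own scale, so ranks are easier to set side by side, and they were 56 and 54. The summit lay 165 bp upstream of the rsp-6 start. It also lay 476 bp downstream of an annotated transcript start of C33H5.13, the next gene upstream on the same strand, in the 474 bp between the end of that gene and rsp-6.

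The rsp-5 and snr-3 genes are transcribed away from each other on chromosome II, 403 bp apart, and 1 peak lay between them. rsp-5 encodes an SR protein and snr-3 (WBGene00004916) the Sm protein D1, so this region joins an SR gene and an Sm core gene. The peak (6489858 to 6490089) had a signal of 303, rank 128. The replicate candidates ranked 130 and 125, with their summits at the same base. The pooled summit was 181 bp upstream of rsp-5 and 223 bp upstream of snr-3.

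A second pair, the SR genes rsp-1 and rsp-2, had the same layout. They lie head to head on chromosome II with 406 bp between them, and a peak of signal 130 (11453021 to 11453410) sat in that interval, 146 bp from the rsp-1 start and 261 bp from that of rsp-2. The replicate candidates had signals of 66.7 and 68.0, ranks 376 and 466, and their summits were again at the same base. The rsp-1 call rests on 1 transcript annotated as noncoding. Its protein-coding transcripts start further downstream, and with those starts alone rsp-1 was not bound, which left 13 of the 36 genes.

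The other 4 SR genes had no optimal peak within 500 bp. For rsp-3, which encodes the worm counterpart of the human splicing factor SF2/ASF, the pooled candidate had a signal of 34.4, and candidates of both replicates lay 6 bp apart at ranks 6185 and 6854. The rsp-7 start had a candidate in replicate 2 at rank 1988 but none in replicate 1. At rsp-8, related to the splicing regulator Tra2, each replicate had a weak candidate, but they lay at different starts 2823 bp apart. No candidate of any list was near rsp-4, the gene of the SC35 counterpart.

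**Figure D3:**
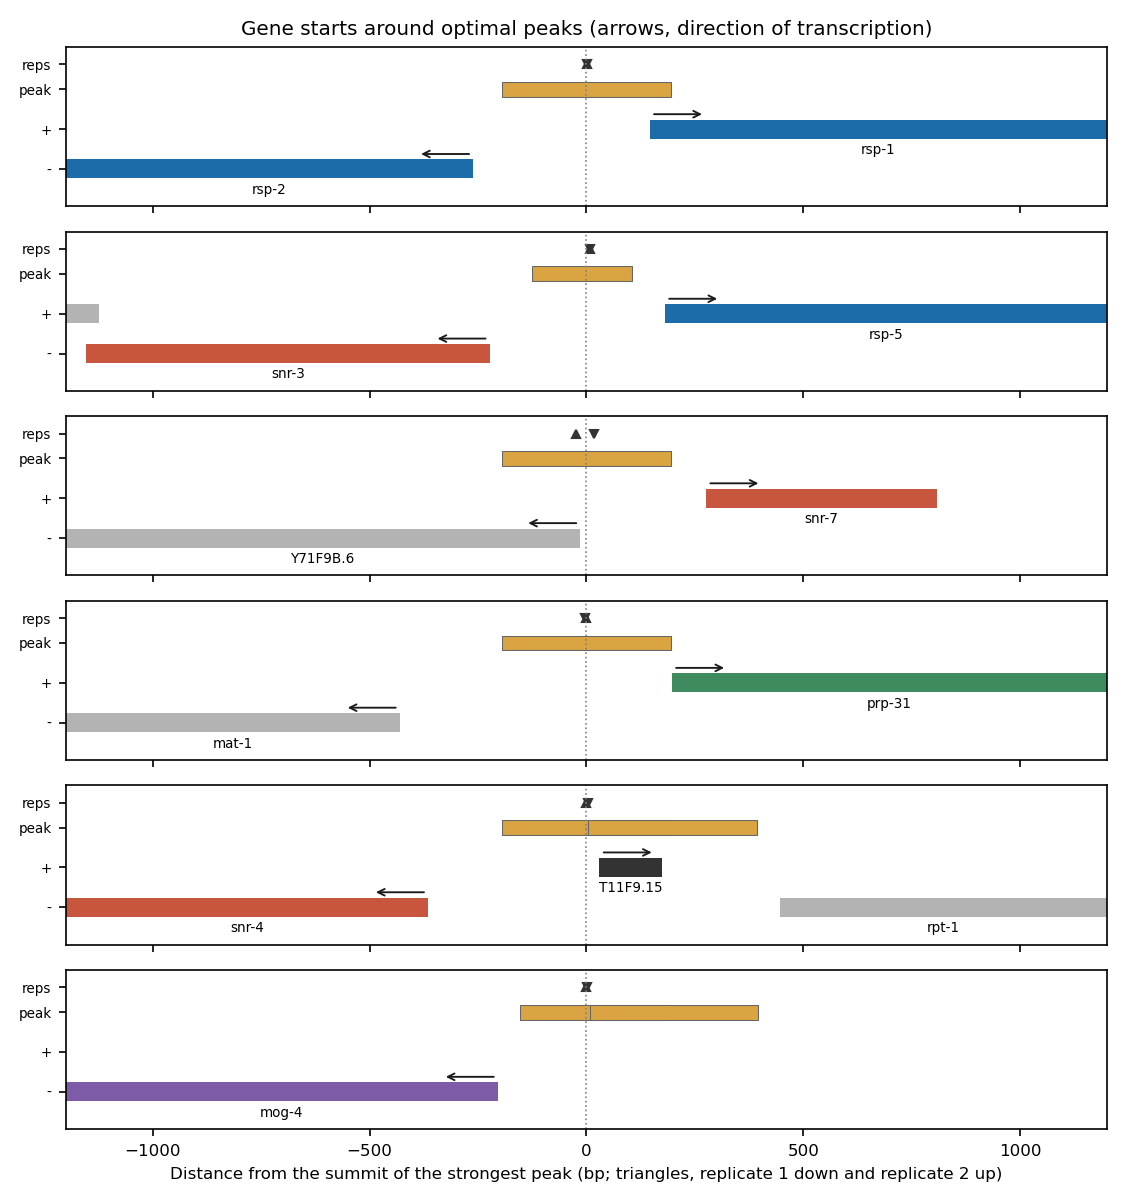
Genes and optimal peaks around 6 peaks, as distance in bp from the summit of the strongest peak; bars are genes on the plus and minus strands with arrows at their 5′ ends, yellow bars are peaks, and triangles are the summits of replicate 1 (down) and replicate 2 (up). The rsp-1, rsp-5, snr-7 and prp-31 panels show a peak between divergent genes, the snr-4 panel a peak, followed by another whose summit is farther than 500 bp from snr-4, beside the snRNA gene T11F9.15, and the mog-4 panel 2 overlapping peaks with no other protein-coding start nearby. The noncoding RNA gene C52E4.14 near the snr-4 peak is not drawn.

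The Sm core genes were bound in 6 of 7 cases, with signals from 73.9 to 303. The 2 strongest were snr-3 at 303 and snr-6, the Sm protein E gene, at 273. The snr-6 candidates ranked 152 in replicate 1 and 141 in replicate 2, with signals of 120.3 and 154.4. snr-4, which encodes Sm protein D2, had a signal of 133 and candidates of 66.68 and 66.03. The other 3 were weaker: snr-2 (Sm protein B) had 91.0, snr-1 (D3) 76.0 and snr-7 (G) 73.9.

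For snr-1 and snr-7 the replicates differed in rank. The snr-1 candidate had a signal of 25.3 and rank 2290 in replicate 1, and 51.1 and rank 755 in replicate 2. The snr-7 candidate had 23.6 and rank 2688 in replicate 1, and 48.2 and rank 843 in replicate 2. Both thus fell outside the 1563 strongest candidates of replicate 1 and inside those of replicate 2. Without replicate 2, by the strongest candidates of replicate 1 alone, 12 of the 36 genes were bound, and the 2 lost were these. snr-5, the Sm protein F gene, had only 1 candidate, in replicate 1 at rank 14495.

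Most Sm core peaks were shared with a neighbour or lay nearer to another gene. The snr-7 summit was 14 bp upstream of the divergent gene Y71F9B.6 and 276 bp upstream of snr-7. The snr-1 summit was 196 bp from snx-13 and 415 bp from snr-1, and the snr-2 summit was 169 bp from W08E3.4 and 297 bp from snr-2. The snr-4 summit was 365 bp upstream of that gene and 30 bp upstream of T11F9.15 (WBGene00014291), an snRNA gene on the other strand. That summit was also 129 bp downstream of the start of C52E4.14, a noncoding RNA gene on the same strand as T11F9.15. When each summit was given to its nearest protein-coding start alone, 2 of the 7 Sm core genes stayed bound, snr-4 and snr-6, and 9 of the 36 genes in all. To which gene of a pair such a peak belongs was not tested.

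Among the prp genes, named after yeast genes for pre-mRNA processing, prp-8 stood highest. It encodes the large protein at the catalytic centre of the spliceosome (WBGene00004187, chromosome III, 8164373 to 8172710). Its peak had a signal of 387, rank 89, with its summit 310 bp upstream of the start. The candidates had signals of 190.4 in replicate 1 and 190.3 in replicate 2, ranks 77 and 103, and summits 6 bp apart. No other protein-coding start lay within 500 bp of it.

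prp-31 and prp-40 had signals of 132 and 120. The product of prp-31 belongs, in yeast and human, to the snRNP complex that is remodelled on activation, and that of prp-40 to the snRNP that first meets the 5′ splice site. Replicate signals at prp-31 were 56.4 and 74.0, and at prp-40 they were 46.9 and 65.4. Both peaks were in intervals shared with a divergent gene whose start lay farther away, mat-1 at 430 bp and clu-1 at 461 bp. The remaining 7 prp genes had at most weak candidates. prp-3, prp-6 and prp-19 had pooled signals from 17.2 to 18.9, each with a candidate in replicate 2 only, and prp-21 had 1 in replicate 2 at rank 15036. prp-4, prp-17 and prp-38 had no candidate in any list.

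Of the other members, only mog-4 was bound, and its signal of 602 (rank 44) was the highest of all 36 genes. mog-4 (WBGene00003392, chromosome II, 14552504 to 14561599, minus strand) encodes a DEAH-box ATPase of the spliceosome that is also needed in the hermaphrodite germline for the switch from sperm to oocytes. Its candidates had signals of 253.5 in replicate 1 and 361.1 in replicate 2, ranks 51 and 42, with summits 3 bp apart. The summit lay 204 bp upstream of the start. A second optimal peak of 468 (rank 67) lay 406 bp upstream and overlapped the first. The nearest protein-coding gene upstream, madf-5, is 12015 bp away, so unlike most bound members mog-4 shared its peaks with no other protein-coding start.

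Its relatives mog-1 and mog-5, which encode DEAH-box ATPases with the same germline role, were not bound. mog-1 had a candidate in replicate 1 alone at rank 11851, and mog-5 had none. Several of the 10 unbound genes in this group had candidates below the optimal list. The strongest were at eftu-2, a GTPase gene of the U5 snRNP, with a pooled signal of 48.3, and at sftb-1, the counterpart of the branch site factor SF3B1, with 46.6. The eftu-2 candidates of both replicates were 2 bp apart, at ranks 4414 and 3051. Next came rnp-2, an snRNP protein gene, at 40.6, then uaf-1 and uaf-2, the genes for the large and small subunits of the factor that recognises the 3′ splice site, at 32.0 and 23.4. snrp-200, the gene of a helicase that unwinds snRNAs, had 17.8. sap-49 and rnp-3 had no candidate.

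**Figure D4:**
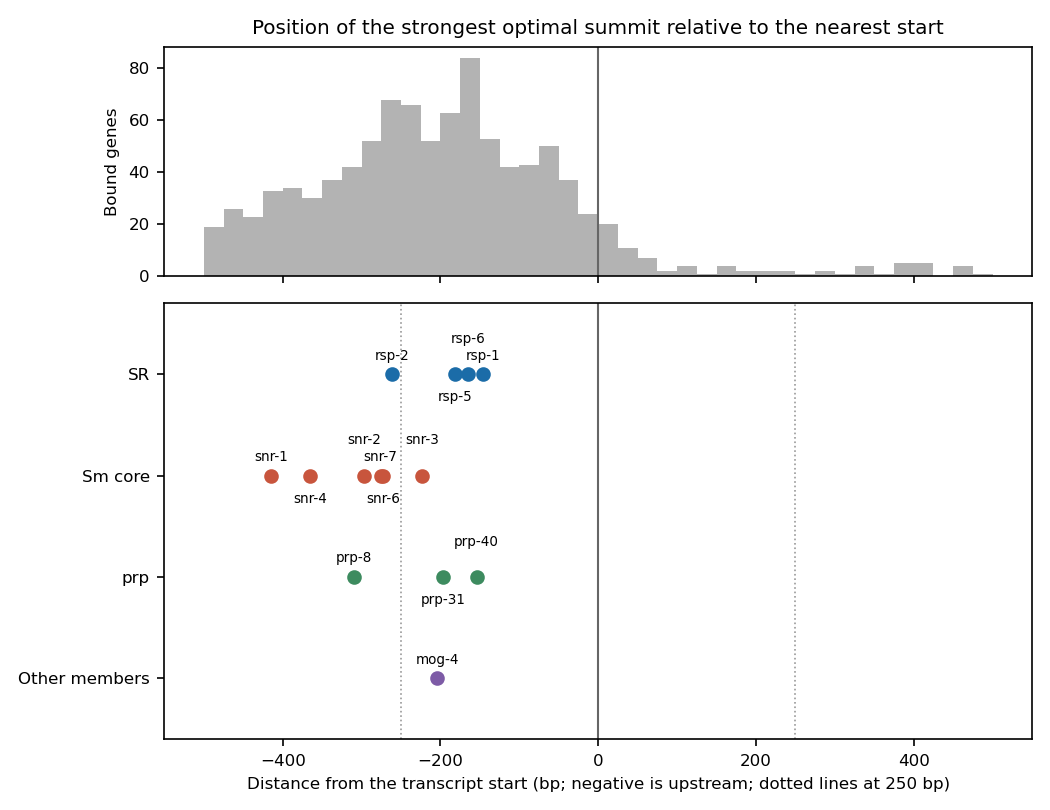
Distance in bp from the nearest transcript start to the strongest optimal summit of each gene, negative upstream, for all 957 bound protein-coding genes (upper panel, histogram) and the 14 bound splicing genes by group (lower panel, 1 point per gene). All 14 lie upstream, and 5 of the 6 Sm core genes lie beyond the dotted line at 250 bp.

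All 14 bound genes had the summit upstream of the start, as did 91.7% of all 957 bound genes. The median position was -242 bp for the 14, beside -202 bp for all bound genes with quartiles of -302 and -106 bp. By group the median was -286.5 bp for the Sm core genes, from -415 to -223 bp. It was -173 bp for the SR genes, from -261 to -146 bp, and -197 bp for the 3 prp genes. The distances make the count depend on the window: with 250 bp in place of 500 bp, 7 of the 36 genes were bound (beside 2.91% of all genes), and of the Sm core genes only snr-3.

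The upstream regions of these genes were often shared with a divergent gene. The nearest upstream gene was on the opposite strand and at most 1000 bp away for 22 of the 36, beside 18.6% of all protein-coding genes. Of these 22 genes 11 were bound, beside 11.8% of the other protein-coding genes with this layout. The same-strand layout, with the upstream gene ending within 500 bp, held 7 of the 36, and rsp-6 was the only bound gene among them (2.63% of the other genes with this layout were bound). Of the remaining 7 genes, snr-4 and mog-4 were bound, beside 3.28% of the other such genes. In total 10 of the 14 bound genes shared a peak with another protein-coding gene, beside 43.1% of all bound genes. The sharing of rsp-1 and rsp-2 rests on the rsp-1 transcript annotated as noncoding. The genes lay on chromosomes I (5), II (11), III (12), IV (5) and V (3), and 0 of the 36 were on chromosome X, which holds 13.7% of protein-coding genes. Among autosomal genes alone 4.92% were bound.

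The replicates put these 13 peaks in a similar order of signal, though snr-1 and snr-7 differed in rank within the full lists. For 12 of the 14 bound genes each replicate had an overlapping candidate among its 1563 strongest, beside 73.9% of all bound genes. Part of that overlap is built in, since the optimal list comes from the pooled replicates. Across the 13 peaks the replicate signals had a Spearman correlation of 0.967, and across 780 peaks at starts 0.731. The points within each set share both libraries and were chosen by their pooled signal, so these values are descriptions. The median gap between replicate summits was 5 bp at the 13 peaks and 18 bp at all peaks at starts.

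**Figure D5:**
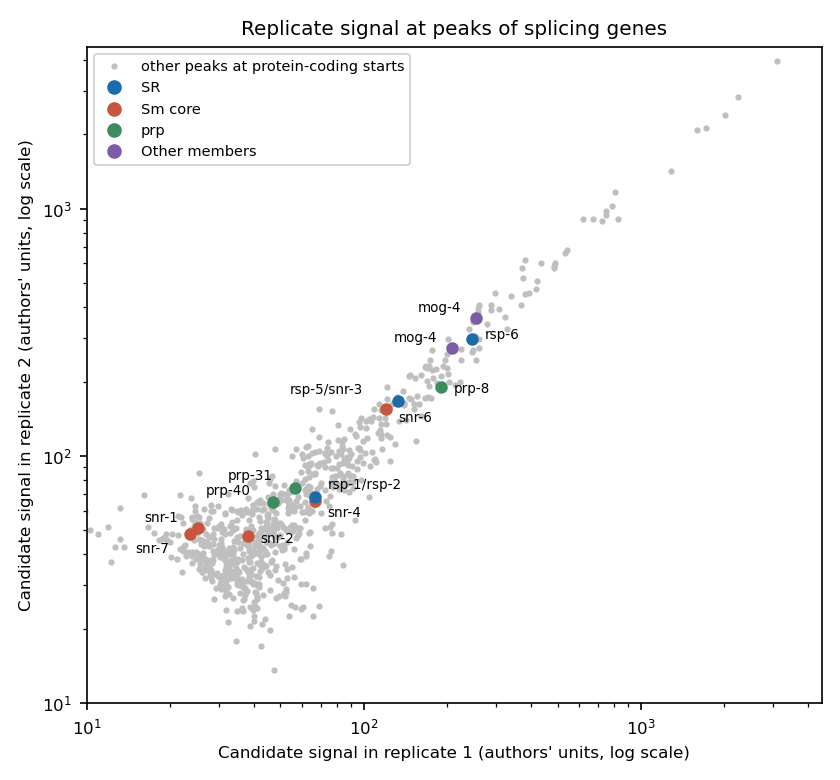
Candidate signal in replicate 1 against replicate 2, both on log scales in the authors' units, at peaks within 500 bp of protein-coding starts (grey) and at the 13 peaks of splicing genes (coloured by group). The splicing genes run from snr-7 at 23.6 and 48.2 to mog-4 at 253.5 and 361.1, and snr-1 and snr-7 lie to the left of the others.

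Counting all candidates, those of the optimal peaks included, the pooled list had a summit within 500 bp of 25 of the 36 genes, beside 29.9% of all protein-coding genes. In replicate 1 this held for 23 (32.2% of all genes) and in replicate 2 for 27 (31.4% of all genes). Candidates of both replicates, which need not overlap, were present at 21 genes, beside 20.9% of all. By group these 21 were 6 SR, 6 Sm core, 3 prp and 6 other genes. The 6 SR genes include rsp-8, whose candidates lay 2823 bp apart. Of the 22 unbound genes, 11 had a pooled candidate and 7 had candidates of both replicates. No candidate of any list was found at 7 genes, which were rsp-4, prp-4, prp-17, prp-38, sap-49, mog-5 and rnp-3. The matching shares of all unbound protein-coding genes were not computed, so these counts are descriptions. The lists give no read depth, so whether deeper sequencing would add peaks at these starts was not tested.

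Other genes of the splicing pathway, from 4 lists of related factors, were bound in 21 of 78 cases (26.9%), beside 38.9% of the 36 genes and 4.79% of all protein-coding genes. Of the spliceosome factors outside the 36, 9 of 40 were bound, the highest being snu-23 at 93.2, plrg-1 at 89.5 and cyn-4 at 89.3. Of 8 Sm-like genes, whose products form related rings on other RNAs, 3 were bound: lsm-3 (159), lsm-1 (87.9) and lsm-5 (77.5). Of 24 regulators 8 were bound. The first was spk-1, which encodes a kinase of SR proteins, at 593 in a peak shared with rheb-1, followed by grld-1 (163), fust-1 (156) and hrpf-1 (136). Of 6 genes for snRNP assembly and import 1 was bound, snpn-1, the snurportin gene, at 185.6. As for spk-1, the peaks of cyn-4, lsm-1, lsm-3, grld-1 and snpn-1 were shared with another gene. To which gene such a peak belongs was not tested.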

How the data were processed

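ChIP-seq of eGFP-tagged LSY-2 was deposited as narrowPeak lists without header lines, 1 candidate list per replicate, 1 pooled candidate list and an optimal list thresholded on the irreproducible discovery rate, per the deposited text listings. Each peak has the authors' signal value and a deposited -log10 q value, which reached a ceiling of 3.53 in the pooled list; the p column was not filled. The sources used here give no aligner, peak caller, threshold or read depth. The ce11 lists were used with the Ensembl release 115 annotation of WBcel235, which is the same assembly; the ce10 lists were not used. The optimal list equalled the 1563 strongest pooled candidates.

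Summits were assigned to every gene with an annotated transcript start within 500 bp, in Python 3.11.15 with pandas 2.3.3. Replicate support meant an overlap of at least 1 bp with the 1563 strongest candidates of each replicate. Assignment was tested on simulated data. No test across genes was run, and the closing section gives the alternatives. The genes, groups and lists were chosen with earlier results of these data known. All 36 genes are named, with genes that share their peaks and, of the other splicing genes, the strongest bound ones. Of 87 symbols in those 4 lists, 78 matched the annotation. Coordinates are 1-based.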

Additional observations from a re-analysis of the deposited data

How the results depend on the processing

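Of 62 recomputed counts, 55 stayed within 1.5 times the value reported. With a window of 250 bp, 7 of the 36 genes were bound, 1 of them an Sm core gene, 7 had the support of both replicates, and 581 protein-coding genes were bound in all. With each summit given to its nearest gene alone, 9 genes were bound, 2 of them Sm core genes, beside 3.8% of all protein-coding genes. With the 781 strongest peaks, 555 protein-coding genes were bound, and snr-1 and snr-7 were the 2 members lost. These settings keep fewer summits or fewer genes per summit, so the counts could only fall. With 250 bp and with the nearest gene alone, Sm core genes fell from 6 to 1 and 2. All bound genes fell from 957 to 581 and 758, a smaller fall in proportion. What set the size of each fall was not tested. With 1000 bp upstream to 200 bp downstream, prp-19 was added, giving 15, beside 5.8% of all protein-coding genes. Without replicate 1 the count was 14 (4.69% of all genes), and without replicate 2 it was 12 (4.57% of all genes). The first start of each gene alone, or any base of the peak in place of its summit, left the same 14 genes. Starts of coding transcripts alone, an alternative chosen after seeing the data, gave 13. No paired analysis was possible because there is 1 group and no comparison between conditions. With 2 replicates and unknown read depth, the absence of a peak at a start is not shown to be absence of binding.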

Other observations

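For 6 of the 22 unbound splicing genes an optimal summit lay beyond 500 bp but within 5 kb of a start, and 5 of these summits were at the start of another protein-coding gene. The share of all unbound protein-coding genes with such a summit was not computed. These values are therefore a description, given without an explanation. The rsp-4 start is 1.27 kb downstream of a summit with a signal of 128, which lay 226 bp upstream of ndx-6, the same-strand gene whose end overlaps rsp-4. The prp-38 start is 2.09 kb downstream of a summit of 89.5 at plrg-1, which ends 106 bp before prp-38 on the same strand and encodes another spliceosome factor. The sap-49 start follows 3 close same-strand genes, the first of which, ubh-4, had a peak of 77.8 with its summit 11 bp from the ubh-4 start and 3.82 kb from sap-49.

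The uaf-1 start is 4.19 kb from a summit of 185 at rab-18 and kbp-4. The prp-19 start is 0.621 kb from a summit of 126, which lay 54 bp upstream of the divergent gene K10D2.5. At rsp-8 a summit of 65.6 lay 0.717 kb downstream of a start and within 500 bp of no protein-coding start. The other 16 unbound genes had their nearest optimal summit from 7.08 to 159 kb away.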
